A study of Gallus gallus with 24 samples.

Results

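Transcript levels in interdigital region 3 of the chicken hindlimb were compared between embryos incubated for 7 days plus 8 hours and embryos incubated for 7 days plus 4 hours. The comparison rests on the 12 libraries whose titles give these times, 6 at each, out of 24 libraries in the series. The other 12 libraries, 6 at 6 h and 6 at 11 h, entered the same fit and contributed to the estimate of the spread. The labels name no genotype, strain, agent or operation, and incubation time is the only difference they give. The labels place the embryos at Hamburger-Hamilton stages 30 to 31 and describe Lasy-Seq libraries of total RNA from tissue dissected after storage in RNAlater. Whether a library stands for 1 embryo or a pool is not stated, so the p-values below reflect variation among libraries, which may be technical.

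The interdigital mesenchyme is the undifferentiated tissue between the digit rays of the foot plate, and in the chick it dies back to free the digits. Bone morphogenetic proteins (BMPs), secreted ligands of the TGF-beta superfamily, are a known trigger of this death, while fibroblast growth factors from the apical ectodermal ridge are known to support survival. Reactive oxygen species accumulate in regressing interdigits, and their level depends on enzymes that produce them and on antioxidant enzymes that remove them. By its title, the study asked how BMPs govern the making and removal of reactive oxygen species during this death. The files identify genes by Ensembl identifier, and none of the 30108 identifiers could be paired with a name in the reference table used here. Values for named BMP, antioxidant or cell death genes, and a check of the tissue against its marker genes, are therefore not given.

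Of 13783 genes tested, 1 rose and 0 fell from 4 h to 8 h at an adjusted p under 0.05, which is 0.00726% of the genes (limma, Benjamini-Hochberg over all genes tested). The gene that rose was ENSGALG00010021761, with a mean level 2.40-fold higher at 8 h. An unadjusted p under 0.05 was found for 1127 genes, or 8.18%, where evenly spread p-values would give 689. Of all genes tested, 382 (2.77%) had such a p and were higher at 8 h, and 745 (5.41%) were lower. Genes measured in the same libraries are not independent, and the excess over 689 was not tested. Replicates 2 and 5 at 8 h were the 2 libraries of this comparison under 1000000 reads. With them left out, 751 genes or 5.45% had an unadjusted p under 0.05, with 400 higher and 351 lower. That fit kept the other 22 libraries, among them 6 h replicate 5 with 747982 reads. The excess of lower genes was therefore not present without those 2 libraries, while the same single gene passed the adjusted threshold in both fits.

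The libraries of the 2 times differ in the running numbers that are part of the library names. Every 8 h library has a higher number than every 4 h library. Replicate 6 at 8 h directly follows the last of the 4 h numbers, and the other 5 libraries at 8 h come after the last number of the whole 11 h group. When the numbers are cut at that point, all 6 libraries at 4 h and 1 of 6 at 8 h belong to a lower range of 14 libraries, and 5 of 6 at 8 h to an upper range of 10. What the number stands for is not given in the labels, and neither is the cut. The single 8 h library in the lower range also has a number above all those at 4 h. Time and library number therefore cannot be told apart here, and each result below carries this limit.

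Depth also differed. The 4 h libraries held 3325712 to 8134730 reads (5050733 ± 1817461, SD, n = 6) and the 8 h libraries 690847 to 6060955 (3502314 ± 2376767, SD, n = 6), a difference within the spread (exact permutation test, two-sided, p = 0.236). Replicate 2 at 8 h had 894326 reads and replicate 5 had 690847, and without them the 8 h mean was 4857178 ± 1437189 (SD, n = 4; exact permutation p = 0.876 against 4 h). Both shallow libraries lie in the upper number range. They detected 13407 and 12159 genes, below the 16186 to 18218 of the other 8 h libraries and the 16797 to 19109 of the 4 h libraries. Over all libraries the genes detected averaged 17848 ± 993 at 4 h (SD, n = 6) against 15892 ± 2536 at 8 h (SD, n = 6; exact permutation p = 0.121). After every library was thinned at random to 690847 reads, the same measure was 14497 ± 908 at 4 h (SD, n = 6) against 13666 ± 882 at 8 h (SD, n = 6; exact permutation p = 0.152), and replicates 2 and 5 still had the lowest values, at 13079 and 12159.

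**Figure D1:**
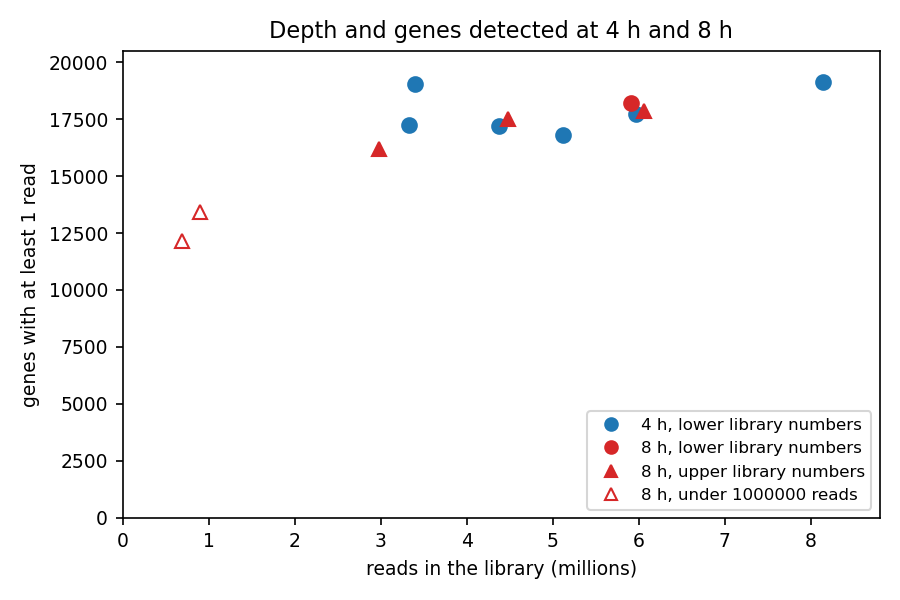
Genes with at least 1 read against reads per library (axis in units of 1000000) for the 12 libraries at 4 h (blue) and 8 h (red); circles are lower library numbers, triangles upper ones, and open triangles the 8 h libraries with 894326 and 690847 reads. The open symbols stand apart at 13407 and 12159 genes, while the other 8 h libraries lie among or near those at 4 h.

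ENSGALG00010021761 separated the 2 times completely. At 4 h its level had a minimum of 41.3, a median of 51.6 and a maximum of 88.3 counts per 1000000 reads (CPM), and at 8 h a minimum of 100.6, a median of 148.5 and a maximum of 168 CPM. The lowest library at 8 h was the shallow replicate 2 and the highest was the shallow replicate 5. The means were 58.3 ± 19.2 CPM (4 h) and 139.8 ± 27.1 CPM (8 h; SD, n = 6 each), and the difference on the log2(CPM + 1) scale was 1.28 ± 0.21 (SE, 95% interval 0.85 to 1.70, adjusted p = 0.010, limma). These values rest on 176 to 612 reads per library at 4 h and 90 to 847 at 8 h.

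Without the shallow libraries this gene averaged 142.5 ± 20.9 CPM at 8 h (SD, n = 4), 2.45-fold above 4 h, and the log2 difference was 1.38 ± 0.22 (SE, adjusted p = 0.011, limma). Replicate 6, the 8 h library in the lower number range, stood at 143.5 CPM, 2.46 times the 4 h mean, against 139 CPM on average in the other 5 libraries at 8 h, which were 2.39-fold above 4 h. The number of replicate 6 still follows every 4 h number, so time and library number cannot be told apart by it. Replicate 6 was also among the 8 h libraries by which this gene and those named below were chosen. Its levels are therefore given as a description. In the fit of the lower range alone, where 8 h is that 1 library and is assumed to vary like the other groups, the log2 difference was 1.43 ± 0.33 (SE) and did not pass (adjusted p = 0.41, limma). When the range was a term of the model it was 1.46 ± 0.32 (SE, adjusted p = 0.87, limma). The call was close to the threshold when 1 library was left out: it was lost without 4 h replicate 1, 3 or 6 or without 8 h replicate 1, 3 or 6, with log2 differences of 1.21 to 1.25 and adjusted p of 0.052 to 0.062 (limma), and kept in the 6 other cases.

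**Figure D2:**
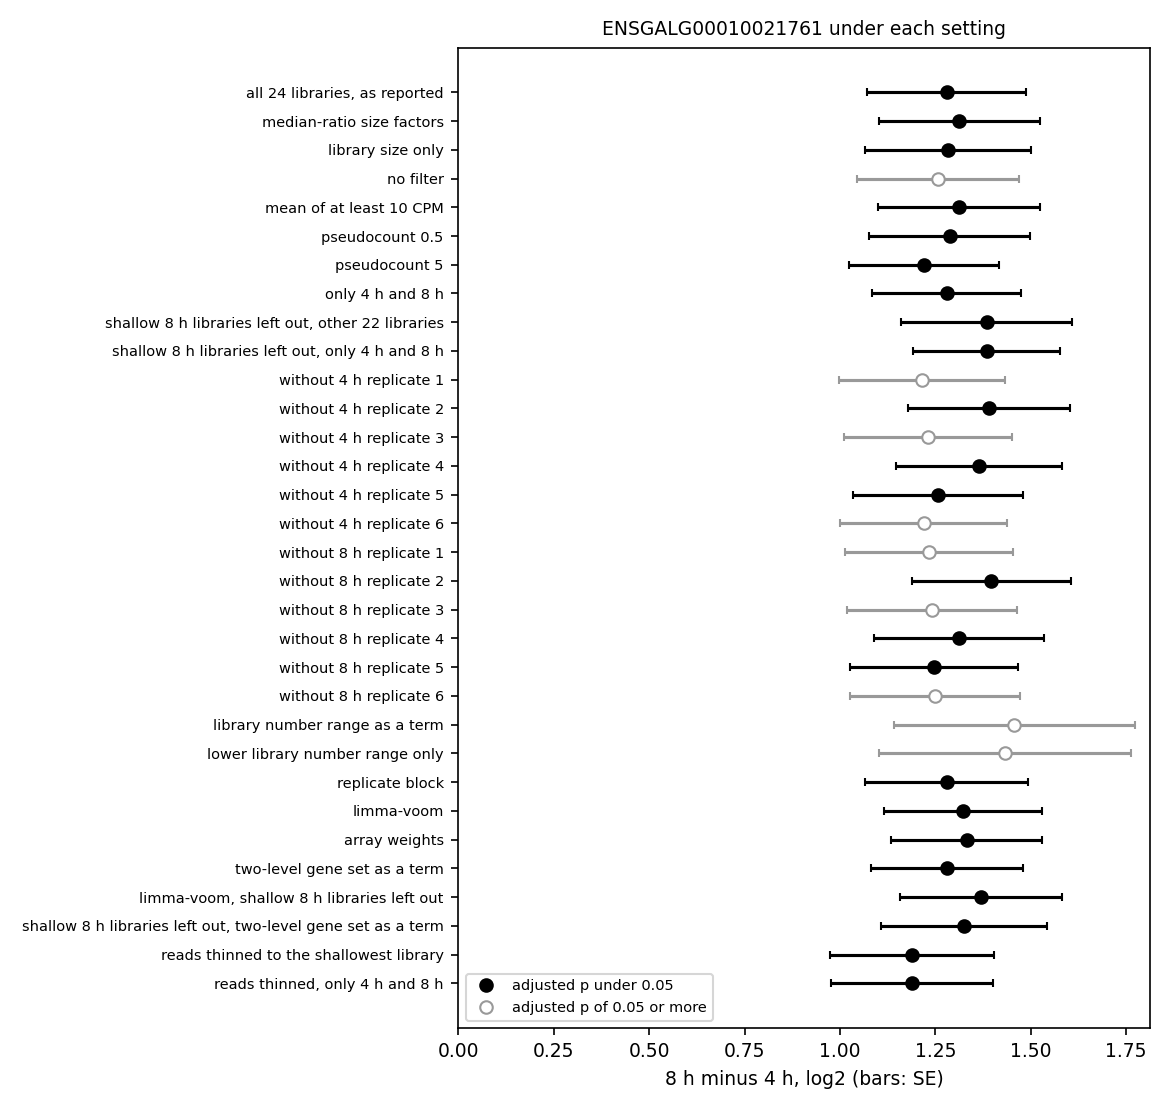
Difference of ENSGALG00010021761 between 8 h and 4 h on the log2 scale, with its SE as bars, under each setting; filled black points had an adjusted p under 0.05 and open grey points did not (limma). All differences lie between 1.19 and 1.46, and the widest errors belong to the 2 settings that use the library number range.

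The gene with the next smallest p among those higher at 8 h and averaging at least 10 CPM was ENSGALG00010002959. Its minimum, median and maximum were 42.4, 73.2 and 102 CPM at 4 h, and 114.5, 129 and 149.5 CPM at 8 h, so that all 6 libraries at 8 h lay above all 6 at 4 h. The 4 h libraries spread more widely than the 8 h ones, with means of 74.1 ± 24.6 and 130.1 ± 12.7 CPM (SD, n = 6 each). The log2 difference of 0.86 ± 0.19 (SE) did not pass the adjusted threshold (adjusted p = 0.28, limma). It was 0.93 ± 0.22 without the shallow libraries (SE, adjusted p = 0.38, limma), and replicate 6 at 8 h, at 121 CPM, was 1.63 times the 4 h mean.

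Among genes lower at 8 h, ENSGALG00010014204 had the smallest p. Its minimum, median and maximum were 132, 192 and 212 CPM at 4 h and 79.1, 102 and 114 CPM at 8 h, again without overlap. After scaling, the log2(CPM + 1) values nearly touched, at 6.954 in 4 h replicate 2 and 6.952 in 8 h replicate 4. At 4 h replicates 2 and 4 formed the low end, at 132 and 141.2 CPM, and the other 4 lay at 188.5 CPM or more. The means were 178 ± 32.7 CPM (4 h) and 101.1 ± 12.1 CPM (8 h; SD, n = 6 each), and 8 h minus 4 h was -0.80 ± 0.16 on the log2 scale (SE, adjusted p = 0.11, limma). This gene passed the threshold when CPM were used without a further scaling factor (-0.79, adjusted p = 0.020, limma), when only genes averaging at least 10 CPM were tested (-0.77, adjusted p = 0.035, limma), and without 4 h replicate 2 (-0.90, adjusted p = 0.016, limma) or 8 h replicate 4 (-0.86, adjusted p = 0.048, limma). Without the shallow libraries the difference was -0.74 ± 0.17 (SE, adjusted p = 0.38, limma), and replicate 6 at 8 h, at 102 CPM, was close to the mean of 100.9 CPM in the other 5.

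The second lower gene, ENSGALG00010002939, was the most abundant of the 4. Its minimum, median and maximum were 527, 702 and 836 CPM at 4 h and 390.1, 456 and 504 CPM at 8 h. The groups did not overlap, but the gap between 504 and 527 CPM was narrow. The library nearest to the 4 h levels was replicate 6, the one in the lower number range. Replicate 5, in the upper number range, followed at 490.7 CPM. For each of the other identifiers named above, the 8 h library nearest to the 4 h levels was in the upper number range. All 8 h libraries but replicate 6 are in that range, so this is a description and tells nothing about library number. The means were 689 ± 135.3 CPM (4 h) and 458 ± 39.6 CPM (8 h; SD, n = 6 each), and 8 h minus 4 h was -0.57 ± 0.13 on the log2 scale (SE, adjusted p = 0.28, limma). In a model that includes the number range the value was -0.42 ± 0.19 (SE, adjusted p = 1.00, limma), and in the lower range alone it was -0.34 ± 0.22 (SE, adjusted p = 0.99, limma).

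**Figure D3:**
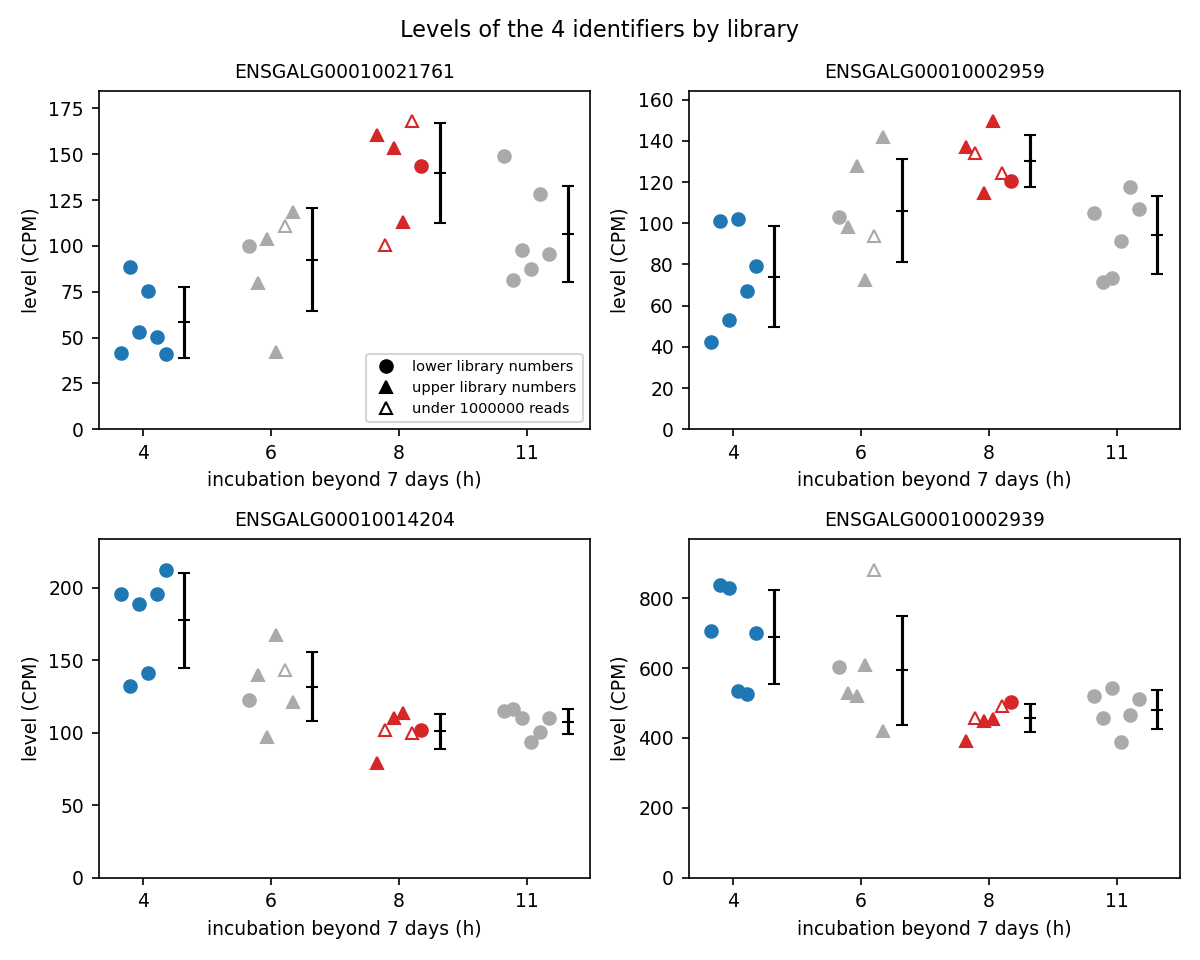
Level (CPM) of the 4 identifiers in each library at 4, 6, 8 and 11 h beyond 7 days; circles are lower and triangles upper library numbers, open symbols are libraries under 1000000 reads, and bars show the mean and SD (n = 6). The 4 h (blue) and 8 h (red) libraries do not overlap in any panel, and the red circle is the 8 h library in the lower number range.

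The levels at the other 2 times are given as a description, since the genes were chosen for their difference between 4 h and 8 h and the 6 h and 11 h libraries entered the fit that chose them. ENSGALG00010021761 averaged 92.5 ± 28.0 CPM at 6 h and 107 ± 26.3 CPM at 11 h, and ENSGALG00010002959 averaged 106 ± 24.9 and 94.2 ± 18.8 CPM (SD, n = 6 each). Both had their highest mean at 8 h, the time they were chosen to be high in. ENSGALG00010014204 averaged 132 ± 23.9 CPM at 6 h and 108 ± 8.64 CPM at 11 h, and ENSGALG00010002939 averaged 593 ± 156.5 and 481 ± 55.5 CPM (SD, n = 6 each). For these 2 genes the 11 h mean lay within 1 SD at 11 h of the 8 h mean. For the 2 genes higher at 8 h it lay more than 1 SD at 11 h below the 8 h mean. The SD is that of single libraries, and whether the means agree was not tested. All 11 h libraries, like those at 4 h, belong to the lower number range.

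Complete separation of the 2 times was seen in a small share of genes. For a given gene, a single regrouping out of 924 gives it in each direction. That is a smaller share than either seen with all 12 libraries, and the excess was not tested. Among the 7209 genes averaging 10 CPM or more, 17 (0.236%) had every 8 h library above every 4 h library, and 19 (0.264%) had every 8 h library below. The 17 higher genes averaged 13.6 to 808 CPM, with log2 differences of 0.30 to 1.54 and a median of 0.86, and 4 of them differed by more than 2-fold. The 19 lower genes averaged 10.2 to 555 CPM, with log2 differences of -1.67 to -0.23 and a median of -0.70, and 3 differed by more than 2-fold. Without the shallow libraries, separation is easier with only 4 libraries at 8 h. For a given gene, a single regrouping out of 210 then gives it in each direction. In that set 89 genes (1.23%) lay above and 51 (0.707%) below, and these shares were not tested either.

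Further genes were called in fits of the 4 h and 8 h libraries alone. A fit of the 12 libraries alone called 2 of the 13783 genes tested, both higher at 8 h. A fit of the 10 that remain without the shallow libraries called 5 of the 13783, all higher. ENSGALG00010021761 was among them in both fits (adjusted p = 0.011 and 0.0011, limma). A second gene was also called in both; it averaged 23.6 ± 9.82 CPM (4 h) and 67.8 ± 12.05 CPM (8 h; SD, n = 6 each), and its libraries at 15.8 to 41.6 and 50.3 to 87.9 CPM did not overlap. With all 24 libraries it differed by 1.54 ± 0.45 on the log2 scale (SE, adjusted p = 0.35, limma). The other 3 were called in the fit of 10 libraries and not in the fit of 12. One of them averaged 30.04 ± 10.4 CPM at 4 h and 93.3 ± 15.9 CPM in the 4 deeper 8 h libraries, but stood at 35.8 CPM (32 reads) and 28.9 CPM (20 reads) in replicates 2 and 5. Its log2 difference was 1.72 ± 0.23 without them and 1.16 ± 0.44 with them (SE; adjusted p = 0.0011 in the fit of 10 libraries and 0.48 in the fit of all 24, limma), and it was also called by limma-voom in the 22 libraries that remain without them. The remaining 2 averaged 48.2 ± 15.4 and 151.4 ± 16.9 CPM at 4 h (SD, n = 6) and 119 ± 22.6 and 287.4 ± 95.1 CPM in the deeper 8 h libraries (SD, n = 4), and both were lowest at 8 h in replicate 2, at 35.8 and 153.2 CPM.

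The direction of the small differences moved with the shallow libraries. With all 6 libraries at 8 h the median difference was negative in each level class examined, from under 10 to above 1000 CPM. In genes averaging under 10 CPM, the median log2 difference was -0.13 with all 6 libraries at 8 h and -0.02 without replicates 2 and 5, and the share of higher genes among those at an unadjusted p under 0.05 went from 27.8% of 389 to 47.6% of 252. Of these 6574 genes, 32.2% and 40.7% had no read in the shallow libraries, against 4.88% to 11.6% in the other 8 h libraries and 2.92% to 9.49% at 4 h. In the 7209 genes averaging 10 CPM or more the median was -0.05 with and 0.01 without them. At an unadjusted p under 0.05, 274 of these were higher and 464 lower with them, against 280 and 219 without. Of all genes tested, 8.18% had such a p with the shallow libraries and 5.45% without. Of 860 genes averaging 100 to 300 CPM, 40 were higher and 84 lower at an unadjusted p under 0.05, against 42 and 42 without the shallow libraries. Of 221 genes averaging 300 to 1000 CPM, 7 were higher and 32 lower, against 11 and 12 without them. The 129 genes above 1000 CPM had a median of -0.02, with 10 higher and 7 lower at an unadjusted p under 0.05. Without the shallow libraries their median was 0.11, with 11 higher and 1 lower at that p. The 100 most abundant genes of each library took 46.4% ± 2.52 of its reads at 4 h (SD, n = 6) against 47.5% ± 2.04 at 8 h (SD, n = 6; exact permutation p = 0.422), or 48.7% ± 1.00 in the deeper 8 h libraries (SD, n = 4; exact permutation p = 0.1).

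**Figure D4:**
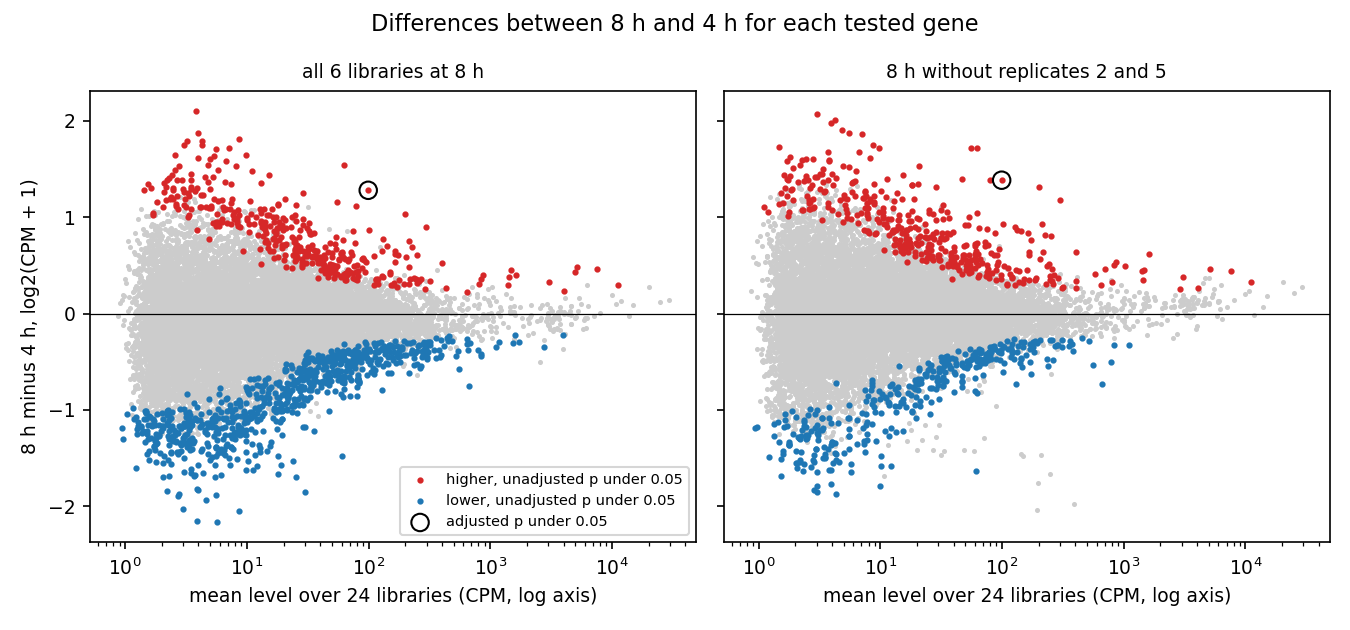
Difference between 8 h and 4 h on the log2(CPM + 1) scale against mean level (CPM, log axis) for 13783 genes, with all 6 libraries at 8 h (left) and without replicates 2 and 5 (right); red and blue points had an unadjusted p under 0.05, and the ring marks the gene with an adjusted p under 0.05. The blue points outnumber the red on the left (745 to 382) and not on the right (351 to 400).

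The split between higher and lower genes also moved with the scaling, thinning and weighting of the libraries. Of the genes with an unadjusted p under 0.05, 33.9% were higher at 8 h in the reported fit. The share was 39.9% with median-ratio size factors, 31.3% with library size only, and 39.8% when every library was thinned to 690847 reads. It was 43.6% with weights per library, which gave the shallow libraries 0.295 and 0.296 against 0.694 to 1.98 for the other 10, and 50.3% with limma-voom, which weights each value by its expected precision. In the settings above, 6.94% (thinned reads) to 8.45% (library size only) of all genes tested had such a p. With limma-voom and without the shallow libraries it was 7.17% of all genes tested. There the higher genes were in excess, with 616 higher and 372 lower (62.3% higher). In the model with the number range the counts were 202 higher and 205 lower, or 2.95% of the genes, and within the lower range alone 576 genes (4.18%) reached that p, of which 46.0% were higher. Those 2 fits have larger errors, with a median SE of 0.38 and 0.39 against 0.25 in genes averaging at least 10 CPM, so a smaller count does not show that time made no difference.

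**Figure D5:**
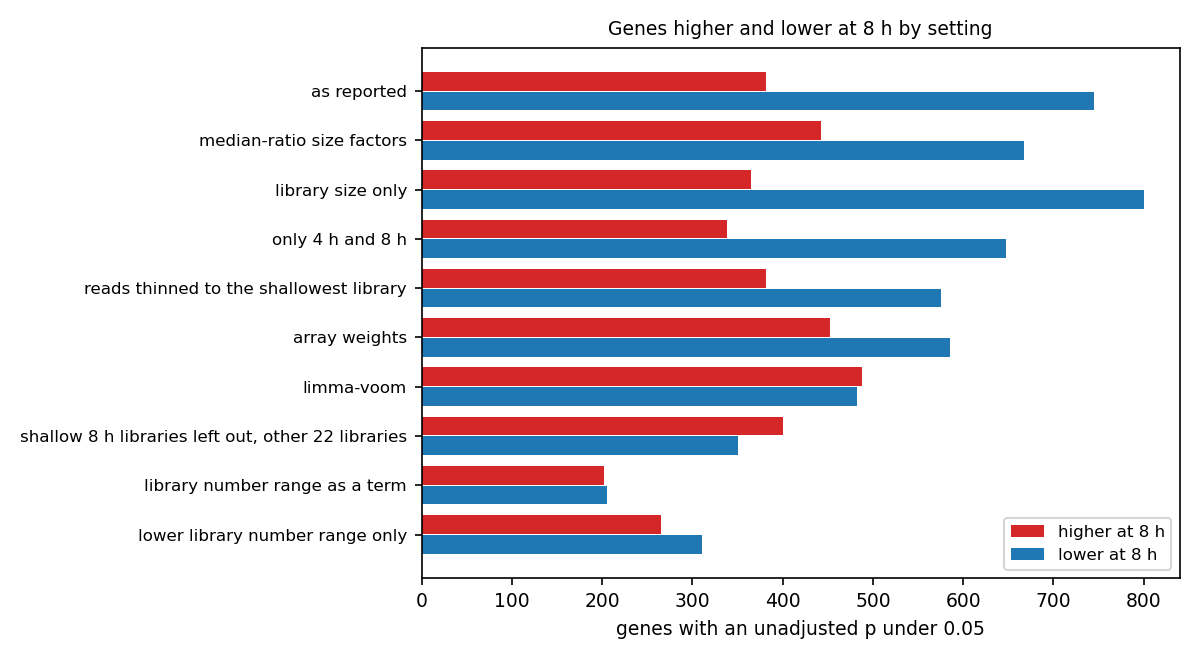
Number of genes with an unadjusted p under 0.05 that were higher (red) or lower (blue) at 8 h, by setting. The bars start at 0. The lower genes exceed the higher ones in the reported fit (745 and 382). The counts are nearly equal with limma-voom (482 and 488) and with the library number range term (205 and 202).

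The shallow libraries also stood farthest from the 4 h mean. The root mean square deviation from that mean, over the 7209 genes with at least 10 CPM, was 0.96 and 0.98 log2 units in replicates 2 and 5 at 8 h and 0.45 to 0.58 in the other 8 h libraries. The 4 h libraries lay 0.44 to 0.61 from the mean of their own other 5. The ranges of the deeper 8 h libraries and of the 4 h libraries overlapped. The median SD within a time was 0.35 log2 units at 4 h, 0.46 at 8 h and 0.31 at 8 h without the shallow libraries.

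Over the whole profile, the 2 times held 9.91% of the variance of the 12 libraries across these genes, against 9.09% on average over all 924 regroupings (exact permutation test, one-sided, p = 0.201). Without the shallow libraries the share was 12.9% against 11.1% over 210 regroupings (exact permutation p = 0.2). A difference between the profiles as a whole was not detectable at this number of libraries. The 95% intervals of the single differences excluded a change of 2-fold or more either way for 5388 of the 7209 genes (74.7%) and a change of 1.5-fold for 2186 (30.3%). Without the shallow libraries, 5552 genes (77.01%) were bounded within 2-fold. These intervals bound time and library number together. In the model with the number range 3374 genes (46.8%) were bounded within 2-fold. That term cuts the numbers into 2 ranges, and the 8 h number in the lower range still follows every 4 h number. Time apart from library number was therefore not bounded for any gene.

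A set of 26 genes that divides all libraries into a high and a low level was balanced between the times, with 3 of 6 libraries high at 4 h and 3 of 6 at 8 h. The 8 h libraries at the high level were replicates 2, 4 and 5, so leaving out the shallow ones left 1 high library of 4. With this division as a term, ENSGALG00010021761 remained the only gene called, with a log2 difference of 1.28 ± 0.20 in all libraries (SE, adjusted p = 0.0042, limma) and 1.32 ± 0.22 without the shallow ones (SE, adjusted p = 0.014, limma).

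Detection at 1 time and in no library of the other was seen at low levels. Of all 30108 genes in the table, 5 had reads in every 4 h library and 0 reads in every 8 h library, and 0 showed the reverse. The highest of the 5 averaged 2.63 CPM at 4 h. Among tested genes averaging under 10 CPM, 32.2% and 40.7% had no read in the shallow libraries, against 4.88% to 11.6% in the other 8 h libraries. With the shallow libraries left out there were 8 of the 30108 genes in each direction, at no more than 2.65 CPM.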

How the data were processed

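The deposited table gives 1 value per Ensembl gene and library on a natural log scale. Since exp(value) - 1 sums to 1000000 in each column, the authors' deposited values are ln(CPM + 1). Per the submitters' processing notes, the tools included Salmon, fastp (0.21.0) and BWA (0.7.17-r1188). Their roles, the build and the annotation are not stated. Of 406811 values above 0, 99.9988% were whole multiples of 1 read within 0.01 read, and these recovered reads gave depth and scaling.

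CPM were divided by TMM factors (trimming 30% of M and 5% of A). The log2(CPM + 1) values were tested with limma 3.58.1 in R 4.3.3 with an intensity trend, in 1 fit of 24 libraries with no covariate. Fold changes on this scale are too small for weakly expressed genes. Genes entered the test if 6 or more libraries had at least 2.26 CPM, which is 10 reads in a library of median depth, and the reads over all libraries came to 15 or more. Exact permutation tests used Python 3.11.15. No gene name could be matched (0 identifiers in a reference table of 25635 genes), so the pathway and marker lists were not evaluated. Where names are lacking, the naming rule takes the 2 smallest p in each direction among genes averaging at least 10 CPM. The comparison, the lists and the tests were chosen with earlier results of these data known.

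Shared replicate numbers were not taken as pairs: for the 6 pairs with the same number at 4 h and 8 h, correlations of the residuals after removing each time's mean ran from -0.17 to 0.091, and 0 exceeded 0.1. No libraries of a time were copies (chi-square per degree of freedom at least 8.08). The planned count model on recovered reads was not run, since the deposited unit is a log scale. Alternatives were other scalings, filters, pseudocounts, libraries, library number, the replicate block, limma-voom, weights per library and a term for 26 genes with 2 levels (a gap of at least 1.5 log2 units with at least 6 libraries on each side).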

Additional observations from a re-analysis of the deposited data

How the results depend on the processing

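ENSGALG00010021761 kept its direction under all 31 alternatives (log2 difference 1.19 to 1.46) and passed in 16 of the 19 that do not leave out a single library (adjusted p 0.0011 to 0.87, limma) and in 6 of 12 that do. It missed with no filter (adjusted p = 0.092, where 27183 genes were tested), with the number range in the model and in the lower range alone. ENSGALG00010014204 passed in 4 of 31; the other 2 identifiers passed in 0 of 31 and kept their sign. The number of genes called was 1 in the reported fit, 0 with no filter, with the range term and in the lower range alone, 2 with library size only, with a mean of at least 10 CPM, in the fit of only 4 h and 8 h and by limma-voom without the shallow libraries, and 5 in the fit of only 4 h and 8 h without them. Leaving out 1 library gave 0 to 3. The genes bounded within 2-fold numbered 3374 with the range term, 3004 in the lower range alone, and 5028 to 5440 when 1 library was left out. A fit with the replicate block called 1 gene, with an adjusted p of 0.032 (limma) for ENSGALG00010021761; 0 of 6 libraries at 8 h correlated best with the 4 h library of the same number. The planned count model was not run. The share of variance stayed on the same side of the threshold under its 4 alternatives. The cause of these changes was not tested. Without a filter more genes were tested, and the unadjusted p of ENSGALG00010021761 also rose, from 7.5e-07 to 3.4e-06 (limma). The lower range held a single 8 h library. The thinned fits, limma-voom without the shallow libraries and the term for the 26 genes without them were chosen after seeing the data. Genes of a few CPM rest on few reads, and the shallow libraries limit what could be seen there.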
